A study of Mus musculus with 3 samples.

Results

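The interferon response genes described here are 9 of the 55422 genes in the count tables: *Cxcl9*, *Cxcl10*, *Iigp1*, *Gbp2*, *Irf1*, *Irf7*, *Ifit1*, *Ifit3* and *Isg15*. They were chosen by symbol, and each was present as 1 row. *Cxcl9*, *Cxcl10* and *Iigp1* led a large group of *Lepr* and *Cxcl12* expressing stromal cells in an earlier clustering of these same cells, so their levels in such cells are given as a description and carry no test. The 3 droplet single-cell RNA libraries came from long bones of untreated C57BL/6 mice aged 3 weeks, and no group received interferon, an infection or any other stimulus. Metaphyseal replicates 1 and 2 were cells of the metaphysis of wild-type males, C57BL/6J in the methods, after bead depletion of lineage-positive, CD45+ and CD117+ haematopoietic cells. The Pdgfra-GFP library held cells sorted for nuclear GFP from males carrying a heterozygous H2B-GFP knock-in at *Pdgfra*; the reporter labels nuclei of Pdgfra-expressing cells. The bones were digested with collagenase before capture.

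The libraries held 25243314, 22082735 and 91747759 UMIs, where a UMI tags a single captured RNA molecule, and 2389, 2011 and 11319 cells passed the filters. The metaphyseal libraries shared 0 cell barcodes with each other, and 9 and 10 with the Pdgfra-GFP library. Cells were assigned by markers to 13 populations that carry the suffix -like. Lepr-like cells numbered 676, 635 and 3636, mpMSC-like cells (metaphyseal mesenchymal stromal cells) 49, 42 and 960, OB-like cells (osteoblasts) 187, 162 and 1519, and EC-like cells (endothelial cells) 1109, 885 and 267. EC-like cells made up 46.4% and 44.0% of the metaphyseal libraries and 2.36% of the Pdgfra-GFP library. The latter was sorted for GFP and not for endothelial cells or macrophages. How its 267 EC-like and 74 macrophage-like cells came through the sort was not tested. The markers of the Lepr-like label were present, and these genes set the gate. *Lepr* stood at 794, 757 and 534 CPM (a gene's UMIs scaled to the same total for every summed population) in metaphyseal replicate 1, metaphyseal replicate 2 and the Pdgfra-GFP library, the order of all triplets of values from here on, and *Cxcl12* at 23849, 23460 and 24612 CPM. The leukocyte gene *Ptprc* stood at 2.32, 5.65 and 1.02 CPM in them and the endothelial gene *Cdh5* at 10.3, 8.34 and 1.02 CPM. The 2 metaphyseal libraries are separate samples by their labels, and nothing says whether they came from separate mice. The tests remove each library's own shift and fit the sums of all populations in 1 model. Their p-values rest on the scatter left over all these sums, shared in part between genes. They do not measure the spread of the compared difference alone, nor variation between mice. With 1 Pdgfra-GFP library, values in it alone have no replicate check.

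Interferons bind cell-surface receptors that act through JAK kinases and STAT transcription factors. Type I interferons act mainly on the interferon-stimulated response element (ISRE) of their target genes, while interferon gamma acts on gamma-activated sites (GAS). *Cxcl9* and *Cxcl10* encode chemokines that bind CXCR3 on activated T and NK cells, and *Cxcl9* is the more strictly gamma-dependent of the pair. *Iigp1* and *Gbp2* encode interferon-inducible GTPases that act on vacuoles of intracellular pathogens. *Irf1* and *Irf7* encode transcription factors, *Ifit1* and *Ifit3* encode antiviral RNA-binding proteins, and *Isg15* encodes a ubiquitin-like protein that is attached to other proteins. *Lepr* and *Cxcl12* expressing stroma is known as a source of factors that keep haematopoietic stem and progenitor cells.

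The promoters of the members differ in which of these elements they hold, and the stretches below show this for *Cxcl9*, *Cxcl10*, *Irf1*, *Ifit1* and *Isg15*. RefSeq windows of build GRCm38.p6 were used for 8 of the 9 members, and none was used for *Iigp1*. The 250 bases before the annotated start were searched on both strands for the letters of an ISRE (GAAA, 2 bases of any kind, GAAA), a GAS (TTC, 3 bases of any kind, GAA) and a kB site (GGGA, 4 bases of any kind, CC), and matches are in capitals. In each sequence the last base lies next to the start.

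*Cxcl9*, chr5:92328080-92328329, minus strand: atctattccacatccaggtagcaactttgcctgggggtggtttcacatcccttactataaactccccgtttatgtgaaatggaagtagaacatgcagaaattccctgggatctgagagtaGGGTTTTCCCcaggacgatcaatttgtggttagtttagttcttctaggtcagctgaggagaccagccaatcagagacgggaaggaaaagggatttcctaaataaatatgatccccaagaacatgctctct
*Cxcl10*, chr5:92348890-92349139, minus strand: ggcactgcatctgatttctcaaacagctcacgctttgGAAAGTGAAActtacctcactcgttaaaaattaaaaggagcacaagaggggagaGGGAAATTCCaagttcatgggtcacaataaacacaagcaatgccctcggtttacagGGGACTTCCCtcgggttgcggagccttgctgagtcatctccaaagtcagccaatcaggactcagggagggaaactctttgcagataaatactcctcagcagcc
*Irf1*, chr11:53769764-53770013, plus strand: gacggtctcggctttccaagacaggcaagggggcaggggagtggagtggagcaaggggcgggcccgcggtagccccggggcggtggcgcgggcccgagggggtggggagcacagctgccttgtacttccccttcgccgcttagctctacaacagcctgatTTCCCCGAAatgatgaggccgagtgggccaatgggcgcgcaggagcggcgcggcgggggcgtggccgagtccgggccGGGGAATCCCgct
*Ifit1*, chr19:34640639-34640888, plus strand: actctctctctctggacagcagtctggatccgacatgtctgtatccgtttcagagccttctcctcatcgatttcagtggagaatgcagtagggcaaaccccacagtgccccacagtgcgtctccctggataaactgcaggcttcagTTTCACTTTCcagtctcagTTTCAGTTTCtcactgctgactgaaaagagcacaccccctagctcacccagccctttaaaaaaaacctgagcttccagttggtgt
*Isg15*, chr4:156200819-156201068, minus strand: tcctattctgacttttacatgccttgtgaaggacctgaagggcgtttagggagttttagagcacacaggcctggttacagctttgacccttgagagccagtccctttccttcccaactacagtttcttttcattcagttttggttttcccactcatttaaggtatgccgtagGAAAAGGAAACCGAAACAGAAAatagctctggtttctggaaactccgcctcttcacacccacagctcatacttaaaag

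ISRE letters stood in 5 of the 8 members with a window, against 2.98% of the 32851 windows searched. *Isg15* held 3 overlapping matches, *Ifit1* and *Ifit3* held 2 each, and *Cxcl10* and *Gbp2* held 1 each. *Irf1* was the member with GAS letters, which 7.02% of all windows held. kB letters stood in *Cxcl9*, *Cxcl10* and *Irf1* and in 17.6% of all windows, and *Cxcl10* held 2 such matches beside its ISRE. A second *Irf1* window, chr11:53770223-53770472, held no ISRE, GAS or kB letters, so the *Irf1* matches are those of the window printed above. The *Cxcl9* window held no ISRE or GAS letters, which says only that these letters are not in these 250 bases. A match is a description of sequence and not a measured site. In the Gencode annotation of GRCm38, *Cxcl9* (chr5:92321347-92328079) and *Cxcl10* (chr5:92346638-92348889) are protein-coding genes on the minus strand with 18558 bases between them. *Ifit3* (chr19:34583531-34588731) and *Ifit1* (chr19:34640871-34650009) lie on the plus strand with 52139 bases between them.

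The chemokine *Cxcl9* was the member most set apart in Lepr-like cells. It stood at 145, 111 and 206 CPM, a mean of 154 ± 48.5 CPM (SD, n = 3). The next population in the metaphyseal libraries was EC-like at 8.98 and 7.41 CPM, and in the Pdgfra-GFP library macrophage-like at 54.96 CPM. The Lepr-like level was thus 16.1, 14.96 and 3.76 times that of the next named population, with EC-like cells taken as a whole. Sinusoidal EC-like cells, a subtype of them, came nearer to Lepr-like cells, at 19.995, 15.4 and 74.1 CPM. OB-like cells held 0 *Cxcl9* UMIs in either metaphyseal library, which allows up to 0.748 and 0.918 CPM at 3 counts, and 3.61 CPM in the Pdgfra-GFP library. mpMSC-like cells held 0 UMIs in both metaphyseal libraries, where their few cells allow up to 5.10 and 6.78 CPM, and 19.1 CPM in the Pdgfra-GFP library. These floors and all intervals given cover counting error only.

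*Cxcl10*, whose gene neighbours *Cxcl9*, did not follow it across populations. In Lepr-like cells it stood at 13.6, 26.9 and 73.4 CPM (mean 38.0 ± 31.4, SD, n = 3), with the Pdgfra-GFP library well above the others. Among the named populations, with EC-like cells not split into subtypes, Lepr-like cells ranked second in each library. EC-like cells led in metaphyseal replicate 1 at 16.4 CPM, neutrophil-like cells in metaphyseal replicate 2 at 77.8 CPM, and macrophage-like cells in the Pdgfra-GFP library at 251 CPM. The neutrophil-like value came from 35 UMIs in 2 of 31 cells. The macrophage-like value came from 114 UMIs in 33 of 74 cells and from 1 library. In EC-like cells of the 3 libraries *Cxcl10* stood at 16.4, 12.9 and 36.9 CPM, which overlaps the Lepr-like range. Their sinusoidal subtype held 27.3, 23.4 and 115 CPM, above Lepr-like cells in metaphyseal replicate 1 and the Pdgfra-GFP library.

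The GTPase gene *Iigp1* reached 255, 223 and 453 CPM in Lepr-like cells (mean 310 ± 125, SD, n = 3). EC-like cells as a whole came next with 134, 146 and 144 CPM, and the 2 ranges did not overlap. Their sinusoidal subtype held 220, 226 and 263 CPM, which overlaps the Lepr-like range and exceeds it in metaphyseal replicate 2. Below the EC-like cells stood mpMSC-like cells with 8.49, 18.1 and 24.5 CPM and OB-like cells with 2.49, 3.06 and 4.22 CPM. Lepr-like cells exceeded OB-like cells 102, 72.8 and 107 times in the 3 libraries. Macrophage-like cells, which led for *Cxcl10*, held 6.60 CPM of *Iigp1* from 3 UMIs.

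*Gbp2*, the other GTPase member, stood at 42.7, 38.5 and 78.4 CPM in Lepr-like cells (mean 53.2 ± 21.9, SD, n = 3). EC-like cells held 35.9, 39.0 and 43.1 CPM, so Lepr-like and EC-like cells were not separated for *Gbp2*. The arterial subtype of EC-like cells held 43.8, 52.1 and 87.8 CPM, above Lepr-like cells in each library. OB-like cells of both metaphyseal libraries held 0 *Gbp2* UMIs, which allows up to 0.748 and 0.918 CPM, and 4.27 CPM in the Pdgfra-GFP library.

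*Irf1* was the member spread most evenly over populations. It stood at 134, 144 and 71.4 CPM in Lepr-like cells (mean 116 ± 39.2, SD, n = 3), and unlike the other 8 members it was lowest in the Pdgfra-GFP library. EC-like cells held 72.5, 72.4 and 52.2 CPM, mpMSC-like cells 54.4, 31.6 and 30.6 CPM and OB-like cells 35.1, 43.1 and 11.8 CPM. Across the 3 libraries the ranges of mpMSC-like and OB-like cells overlapped. Lepr-like cells exceeded OB-like cells 3.80, 3.33 and 6.07 times, the smallest ratio in each library among the members with a UMI in OB-like cells.

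*Irf7* stood at 78.5, 66.5 and 120 CPM in Lepr-like cells (mean 88.4 ± 28.3, SD, n = 3). These cells led in both metaphyseal libraries, ahead of EC-like cells at 28.8 and 33.5 CPM. In the Pdgfra-GFP library macrophage-like cells led at 198 CPM, from 90 UMIs in 45 of 74 cells. OB-like cells held 3.74, 16.8 and 4.77 CPM, and the middle value came from 55 UMIs in 3 of 162 cells.

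The antiviral genes *Ifit1*, *Ifit3* and *Isg15* were also found in mpMSC-like and EC-like cells. *Ifit1* stood at 72.8, 79.7 and 136 CPM in Lepr-like cells (mean 96.1 ± 34.6, SD, n = 3) and at 54.4, 2.26 and 61.6 CPM in mpMSC-like cells. The low mpMSC-like value, from 1 UMI in 42 cells, makes the Lepr-like excess 1.34, 35.3 and 2.21 times, so its size is set by 1 library of few cells. *Ifit3* stood at 36.8, 33.6 and 74.0 CPM in Lepr-like cells (mean 48.2 ± 22.5, SD, n = 3) and at 31.1, 34.95 and 79.99 CPM in EC-like cells, with no separation between them. Arterial EC-like cells held 48.7, 34.1 and 126 CPM of *Ifit3*. That was above Lepr-like cells in the Pdgfra-GFP library, while in both metaphyseal libraries the 95% Poisson intervals of the 2 populations overlapped. *Isg15* stood at 340, 312 and 410 CPM in Lepr-like cells (mean 354 ± 50.2, SD, n = 3). EC-like cells held 144, 145 and 399 CPM of *Isg15*, so in the Pdgfra-GFP library the Lepr-like level was 1.03 times the EC-like one. OB-like cells stood at 15.7, 31.8 and 11.3 CPM. Of the *Ifit1* signal in OB-like cells of metaphyseal replicate 1, all 67 UMIs lay in 1 of 187 cells, and the 30 UMIs of *Ifit3* likewise lay in 1 cell.

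**Figure D1:**
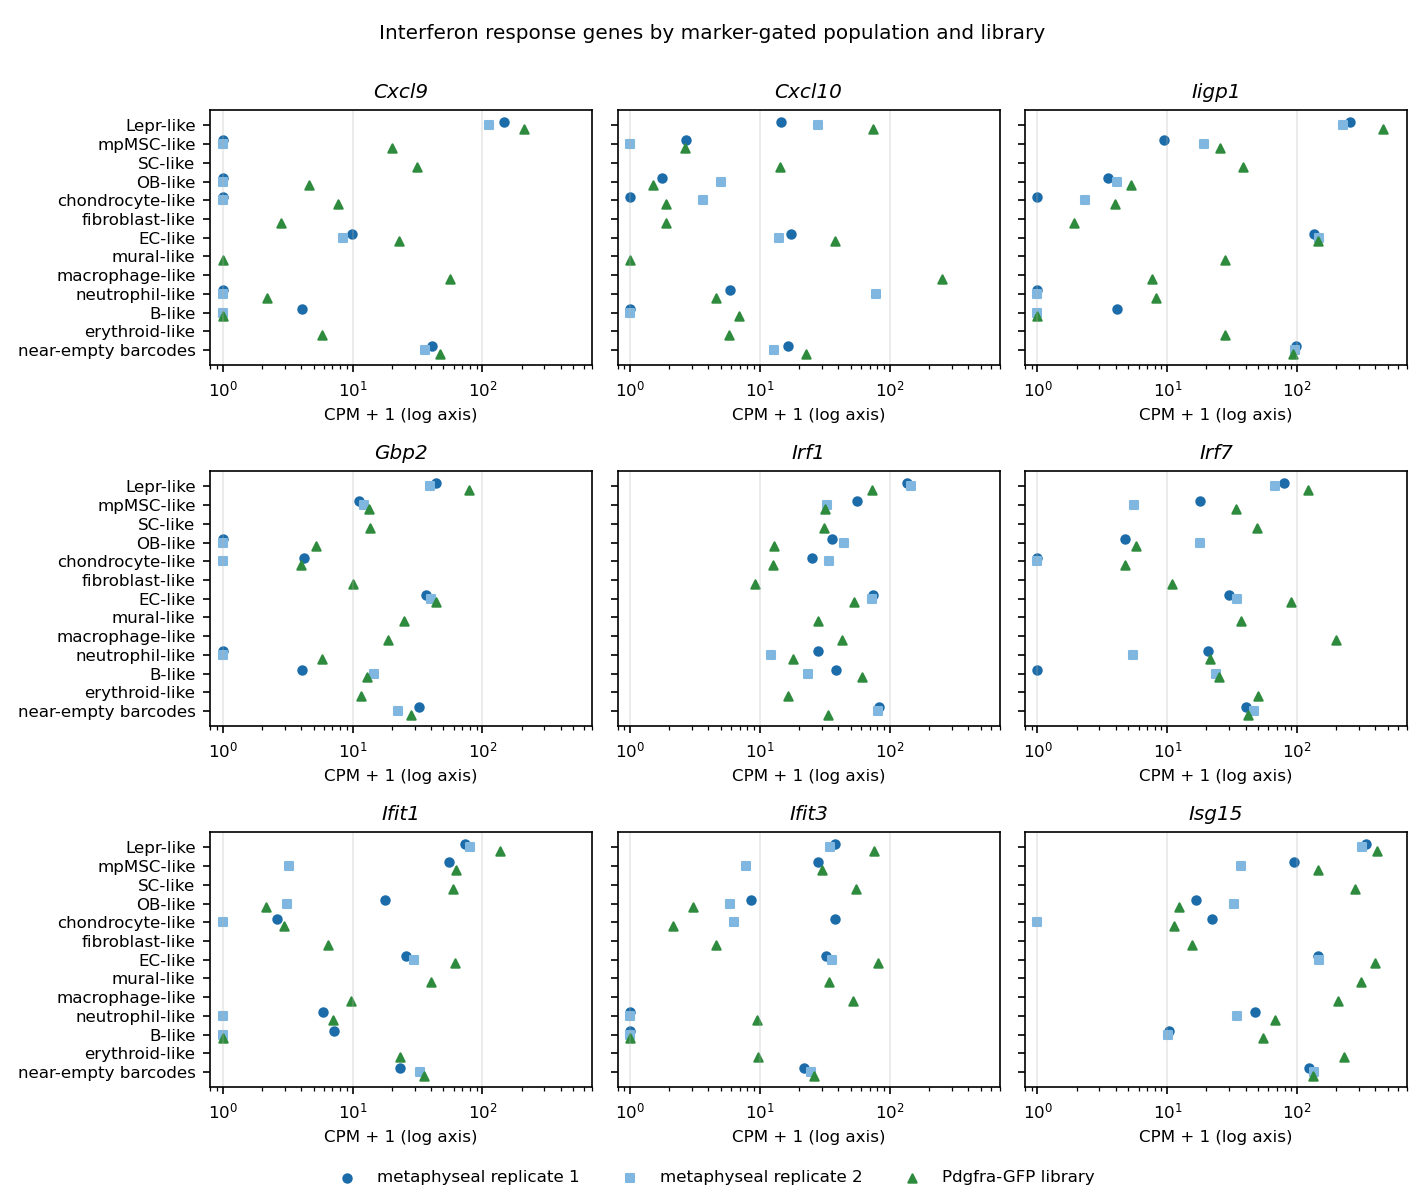
Level of each of the 9 genes (CPM + 1, log axis) in each marker-gated population of at least 20 cells and in near-empty barcodes, with 1 point per library and no error bar. Among the populations shown, with EC-like cells not split, Lepr-like cells stand highest in every library for *Cxcl9*, *Iigp1*, *Irf1*, *Ifit1* and *Isg15*. Macrophage-like cells lead for *Cxcl10* and *Irf7* in the Pdgfra-GFP library. Arterial EC-like cells exceed Lepr-like cells for *Isg15* in metaphyseal replicate 2 (315 against 312 CPM) and the Pdgfra-GFP library (631 against 410 CPM). They also do so for *Ifit1* in metaphyseal replicate 1 (92.5 against 72.8 CPM). Sinusoidal cells do so for *Iigp1* in metaphyseal replicate 2 (226 against 223 CPM) and *Irf1* in the Pdgfra-GFP library (76.8 against 71.4 CPM).

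Barcodes with at most 100 UMIs, which come from near-empty droplets and stand for RNA free in the suspension, held all members. *Cxcl9* stood at 39.6, 35.2 and 45.9 CPM there, and *Isg15* at 121, 134 and 132 CPM. OB-like cells of the same suspensions stood at 0, 0 and 3.61 CPM of *Cxcl9*. In a thinned comparison, with each cell reduced to 2000 UMIs, a *Cxcl9* UMI was seen in 4.73%, 6.46% and 16.2% of Lepr-like cells and in 0%, 0% and 0.791% of OB-like cells. Without thinning the shares were 9.62%, 11.7% and 22.3% of Lepr-like cells and 0%, 0% and 2.44% of OB-like cells, at median depths of 5598.5, 5587 and 3549.5 UMIs against 22160, 21606 and 11689 UMIs. The deeper OB-like cells thus showed fewer *Cxcl9* UMIs. The thinned shares for *Iigp1* were 29.4%, 28.7% and 41.5% of Lepr-like cells, against at most 1.23% of OB-like cells.

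The members were not expressed by all Lepr-like cells alike. At 2000 UMIs, 32.7%, 28.2% and 23.5% of Lepr-like cells showed no member at all, and 1.48%, 1.89% and 4.85% showed 5 or more of the 9, which is 10, 12 and 164 cells. EC-like cells showed 5 or more members in 0.361%, 0.904% and 2.76%. Among mpMSC-like cells the shares were 0%, 0% and 0.108%, and among OB-like cells 0%, 0% and 0.0659%.

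**Figure D2:**
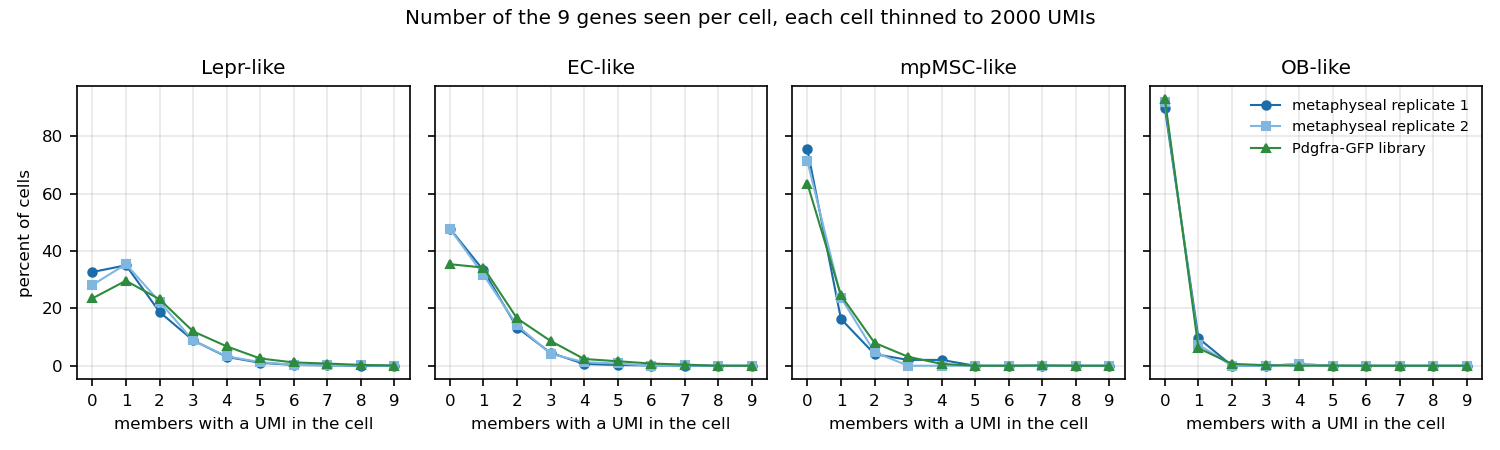
Percent of cells (y axis) by the number of the 9 genes with at least 1 UMI (x axis), in 4 populations and 3 libraries, each cell thinned to 2000 UMIs. Most OB-like cells show none, while Lepr-like and EC-like curves carry a tail of cells with 5 or more.

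The Lepr-like cells with 5 or more members also held the stromal marker genes, which had set their gate. In the Pdgfra-GFP library their summed levels were 530 and 543 CPM for *Lepr*, 5582 and 6032 CPM for *Adipoq*, and 23793 and 24898 CPM for *Cxcl12*, with the 164 cells given before the other 3217. *Lepr* stood at 792 against 793 CPM in metaphyseal replicate 2 and at 650 against 803 CPM in metaphyseal replicate 1, where the 10 cells gave 13 UMIs. *Adipoq* stood at 1850 against 2876 CPM in metaphyseal replicate 1 and at 2542 against 2904 CPM in metaphyseal replicate 2. The leukocyte gene *Ptprc* had 0, 0 and 1 UMIs in them, the macrophage gene *C1qa* 0, 0 and 2 UMIs, and the endothelial genes *Cdh5* and *Emcn* 0 UMIs in all 3 libraries. *C1qa*, *Cdh5* and *Emcn* are gate markers of other populations, so these values follow from the gate and do not test what the cells are. *Ptprc* was not a gate marker, and the other Lepr-like cells also held few of its UMIs (2, 2 and 5). All these values are sums over cells of a library, and cells are not replicates.

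Members differed in how their UMIs were spread over Lepr-like cells. *Cxcl10* was seen in 4 of 676, 5 of 635 and 63 of 3381 thinned cells, and the top 1% of cells held 100%, 100% and 92.9% of its UMIs. A single Lepr-like cell held up to 78 of its 2000 UMIs as *Cxcl10* in the Pdgfra-GFP library. *Cxcl9* was less extreme, with 72.3%, 65.8% and 38.0% of UMIs in the top 1% of cells. By contrast the top 1% of cells held 15.8%, 15.8% and 13.0% for *Isg15*, 13.6%, 11.9% and 16.6% for *Irf1*, and 17.7%, 13.9% and 14.3% for *Iigp1*. A summed *Cxcl10* level is therefore carried by few cells, and its spread between libraries is large.

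Within Lepr-like cells some pairs of members went together more than others. Over the log2(UMI + 1) values of thinned cells, *Ifit1*, *Ifit3* and *Isg15* went together, with Pearson's r of 0.23 to 0.42 over the 3 pairs and 3 libraries. *Cxcl9* and *Gbp2* had r of 0.20, 0.29 and 0.33, and *Cxcl10* and *Ifit3* had 0.30, 0.51 and 0.32. *Irf1* stood apart, with r between -0.03 and 0.10 to each of the other members except *Cxcl10*. For *Cxcl10* it ran from -0.04 in metaphyseal replicate 1 to 0.19 in the Pdgfra-GFP library. The n was 676, 635 and 3381 cells, the cells of a library share its depth and capture, and no p is given. The members were chosen through a cluster of such cells, so that they occur together is part of the choice.

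**Figure D3:**
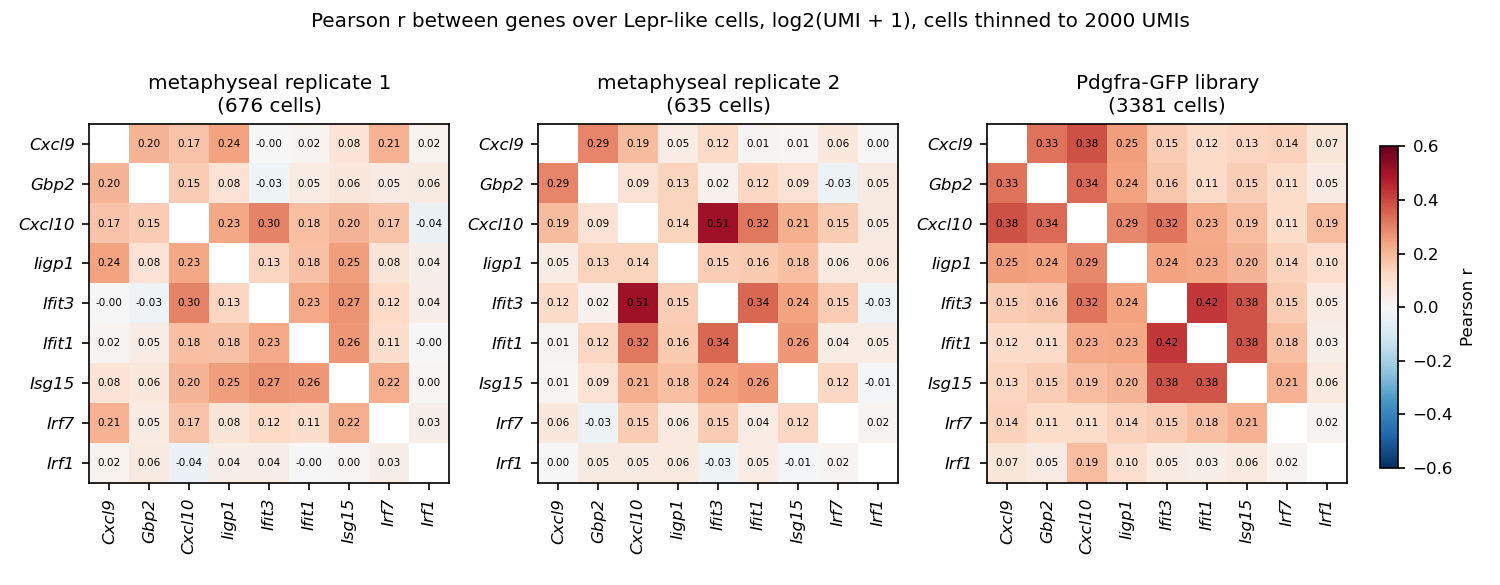
Pearson r for each pair of members over Lepr-like cells, by library, on log2(UMI + 1) of cells thinned to 2000 UMIs, on a colour scale from -0.6 to 0.6. *Ifit1*, *Ifit3* and *Isg15* form a block in all 3 libraries, and the *Irf1* row runs from -0.04 to 0.19.

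The thinned Lepr-like cells were also split by whether they held a UMI of a member. In cells with a *Cxcl10* UMI, 7 of the 8 other members were at least 2 times as high as in cells without one in all 3 libraries, as were 0.6% of the 5832 genes compared. Nothing is read from this count, since the members were chosen from a cluster of such cells and the metaphyseal values rest on 4 and 5 cells. The exception was *Irf1*, with 0 UMIs in the 4 such cells of metaphyseal replicate 1. With a *Cxcl9* UMI the median ratio over the other members was 2.86, 2.11 and 2.34, and *Gbp2* stood 3.94, 6.16 and 3.94 times as high. *Cxcl10*, which held too few UMIs to enter the count of genes, stood 12.6, 165 and 38.2 times as high, from 5, 34 and 457 UMIs in the cells with *Cxcl9*. Of the 7 members that entered it, *Gbp2* reached 2 times in all 3 libraries, as did 0.0514% of 5831 genes. The same count of 7 members was 2 for a split by *Iigp1* (0.0343% of all genes), 2 for *Irf7* and 2 for *Gbp2* (0.0686% each), 3 for *Ifit1* (0.103%), 4 for *Ifit3* (0.189%) and 2 for *Isg15* (0.0857%). *Isg15* stood 1.82, 1.37 and 1.72 times as high in cells with a *Cxcl9* UMI as in those without. With an *Irf1* UMI, 0 of 7 members tested and 0 of 5831 genes reached 2 times in all 3 libraries.

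Few UMIs came from interferon genes or from the chemokine receptor. Of 21 interferon genes, none passed the filter on low counts, and *Ifng* gave 1 UMI among the 11319 cells of the Pdgfra-GFP library and 0 in the other libraries. *Ifnb1* gave 0 UMIs in all cells. *Ifnz*, a type I interferon gene, gave 3, 3 and 27 UMIs. *Cxcr3*, the receptor of CXCL9 and CXCL10, gave 8, 4 and 13 UMIs in all kept cells and 0 in Lepr-like cells. T or NK-like cells numbered 1, 0 and 1, after a depletion or a sort that would remove them, so ligand levels in the intact marrow are not seen here.

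The rest of the pathway was then read in the comparison of Lepr-like with mpMSC-like cells, with edgeR's quasi-likelihood test and Benjamini-Hochberg adjustment over 13303 genes. The lists were chosen with earlier results of these data known, and the members were chosen through such cells. List counts in Lepr-like cells, here and against OB-like cells below, are thus a description and no independent support. At an adjusted p under 0.05, 26.9% of all genes differed, 14.1% higher and 12.8% lower in Lepr-like cells. Among receptors and JAK-STAT components, 11 of 16 were higher and 1 was lower. *Ifnar2*, a chain of the type I receptor, was higher by 1.42 ± 0.21 (log2 fold change ± SE, adjusted p = 1.45e-05). *Ifngr1*, a chain of the gamma receptor, was higher by 1.29 ± 0.20 (adjusted p = 3.65e-05). *Socs1*, a feedback inhibitor of JAK kinases, was the lower one at -1.17 ± 0.28 (adjusted p = 0.0029), while *Socs3* was higher by 1.58 ± 0.25.

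Of 36 tested type I-led genes, 24 were higher and 0 lower, with a median log2 fold change of 1.27 against 0.07 over all genes. *Rtp4*, a chaperone of receptor proteins, was higher by 1.92 ± 0.22 (adjusted p = 8.91e-07) and *Zbp1*, a sensor of unusual nucleic acid forms, by 2.51 ± 0.43. *Ifi27l2a* stood at -0.59 ± 0.33 and *Eif2ak2*, the RNA-activated kinase, at 0.07 ± 0.19, and neither passed. Of 18 tested gamma-led genes, 10 were higher and 0 lower, with a median of 1.04. *Ifi47*, another interferon-inducible GTPase gene, was higher by 3.11 ± 0.30 (adjusted p = 7.33e-08) and *Gbp5* by 4.16 ± 0.70, while the MHC class II genes *H2-Aa* and *H2-Ab1* stood at 0.37 ± 0.75 and 0.03 ± 0.56. Without the library as a block, the type I-led count was 13. Without metaphyseal replicate 1 it was 14, and without the Pdgfra-GFP library the gamma-led count was 6. The members themselves, untested here, had fitted log2 fold changes (± SE) from 1.03 ± 0.59 for *Ifit3* to 4.84 ± 0.94 for *Cxcl10*, the latter against mpMSC-like cells with 1, 0 and 10 UMIs.

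Lists other than the type I-led and gamma-led ones also held called genes in this comparison. Of 12 genes of MHC class I and antigen processing 8 were higher and 0 lower, with *H2-K1* at 1.70 ± 0.30 and *Tap1*, a peptide transporter subunit, at 1.04 ± 0.26. Of 13 tested cytokines and regulators led by NF-kB 11 were higher and 0 lower, with the chemokine gene *Ccl7* at 4.21 ± 0.40. Their median log2 fold change was 2.17, above the 1.27 of type I-led genes, so the rise was not particular to interferon lists. Immediate early and heat shock genes, which respond to handling and digestion, had a median of 1.03, against 1.04 for gamma-led genes. Of these 12 genes 6 were higher and 0 lower, among them *Junb* at 1.61 ± 0.30. The last count was 2 without the block, 3 without metaphyseal replicate 1 and 2 without metaphyseal replicate 2, and the count of receptors and JAK-STAT components was 7 in each of these settings. The part of digestion in the interferon results was not tested.

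Against OB-like cells, 53.6% of all genes differed, 28.3% higher and 25.3% lower in Lepr-like cells. Type I-led genes were higher in 30 of 36 and gamma-led genes in 11 of 18, with none lower and medians of 2.55 and 2.32. *Usp18*, which trims ISG15 from proteins, was higher by 3.15 ± 0.40. All 12 genes of MHC class I and antigen processing were higher, from *Psme2* at 0.55 ± 0.16 to *Psmb8*, an immunoproteasome subunit, at 3.63 ± 0.24. Of 13 tested NF-kB-led genes 11 were higher and 0 lower, with a median of 2.30. The immediate early and heat shock genes ran the other way, with 9 of 12 lower and 0 higher in Lepr-like cells, *Atf3* lowest at -3.72 ± 0.41. That count was 3 without the block and 4 without either metaphyseal replicate. Both comparisons use the same Lepr-like sums.

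**Figure D4:**
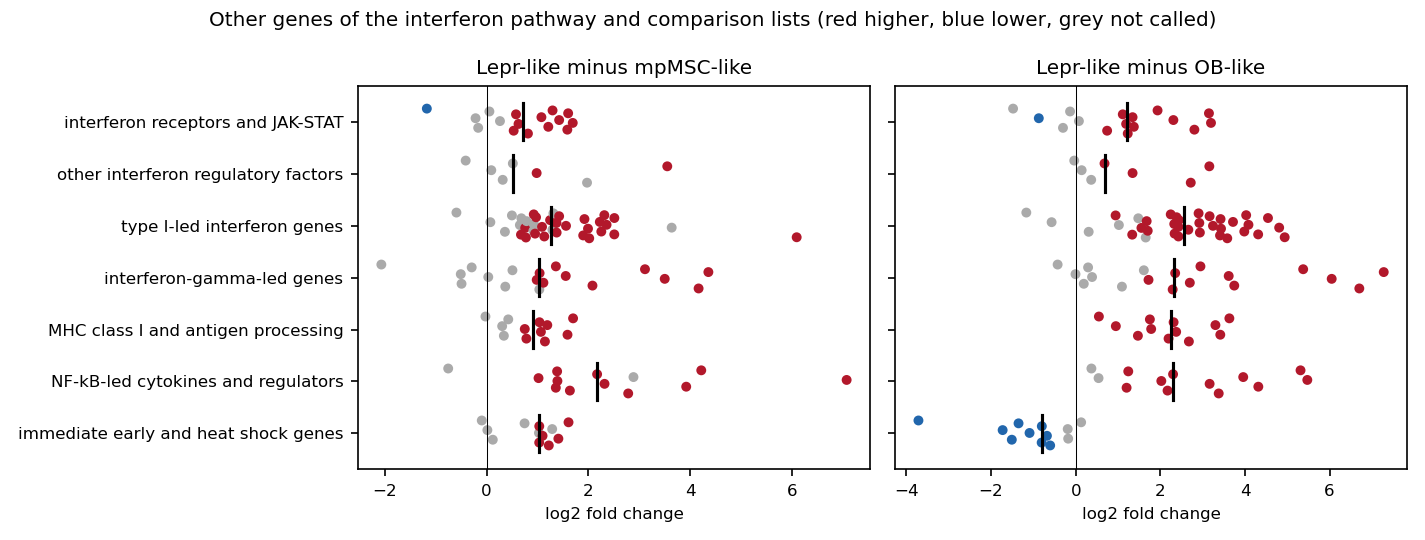
Log2 fold change of each tested list gene between Lepr-like and mpMSC-like cells (left) and Lepr-like and OB-like cells (right). Each point is a gene, red or blue where the adjusted p passed 0.05, and bars are list medians. The medians of the interferon lists and of the NF-kB-led list lie above 0 in both panels. The NF-kB-led median is the highest shown against mpMSC-like cells (2.17). That of the immediate early genes lies above 0 against mpMSC-like and below 0 against OB-like cells.

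The members were tested between populations that their choice did not name. The choice used the same libraries, and genes lead a group of cells relative to the other cells. These tests, and the endothelial ones below, are therefore not independent of the choice. All 9 members passed the filter on low counts, which was set over all population sums, Lepr-like ones included. Between OB-like and mpMSC-like cells, 4 of the 9 passed as lower in OB-like cells and 0 as higher, and 16.3% of all genes passed as lower. Of these, *Cxcl9* had UMIs in 1 library alone and passed the filter through other populations, so its call has no replicate check. *Ifit1* was lower by 2.34 ± 0.63 on the log2 scale (adjusted p = 0.00617), with OB-like levels of 16.7, 2.14 and 1.16 CPM against 54.4, 2.26 and 61.6 CPM. *Iigp1* differed by -1.55 ± 0.33 (adjusted p = 0.000865), *Isg15* by -1.49 ± 0.43 (adjusted p = 0.0102) and *Cxcl9* by -1.56 ± 0.53 (adjusted p = 0.0277). OB-like cells were below mpMSC-like cells in all 3 libraries for *Iigp1*. For *Ifit1* and *Isg15* they were clearly below in metaphyseal replicate 1 and the Pdgfra-GFP library. In metaphyseal replicate 2 the 2 populations were close, at 2.14 against 2.26 CPM for *Ifit1* and 31.8 against 36.1 CPM for *Isg15*. The mpMSC-like *Ifit1* value there came from 1 UMI. The *Cxcl9* call rested on the Pdgfra-GFP library, since both populations were at 0 in the metaphyseal ones, and without it the log2 fold change was 0.0051. Without the library as a block, *Cxcl9* (adjusted p = 0.213) and *Isg15* (adjusted p = 0.071) no longer passed. Without the Pdgfra-GFP library, *Iigp1* (adjusted p = 0.0732), *Ifit1* (adjusted p = 0.279) and *Isg15* (adjusted p = 0.0923) did not pass either, with DESeq2's Wald test *Ifit1* (adjusted p = 0.127), *Isg15* (adjusted p = 0.148) and *Cxcl9* (adjusted p = 0.414) did not, and without metaphyseal replicate 1 *Isg15* did not (adjusted p = 0.192). Calls were gained by edgeR for *Gbp2* without the Pdgfra-GFP library (adjusted p = 0.000161), for *Irf7* without metaphyseal replicate 2 (adjusted p = 0.00277) and for *Ifit3* without metaphyseal replicate 1 (adjusted p = 0.0127), all lower in OB-like cells. The gained *Gbp2* call rested on few UMIs, 0 and 0 in OB-like cells against 6 and 5 in mpMSC-like cells of the metaphyseal libraries.

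Of the other interferon genes tested between OB-like and mpMSC-like cells, 23 of 36 type I-led, 8 of 18 gamma-led and 9 of 12 MHC class I and antigen processing genes were lower in OB-like cells, and 1, 0 and 0 were higher. Of all genes, 16.3% were lower in OB-like cells and 16.6% higher. Without the Pdgfra-GFP library the type I-led count was 14. Immediate early and heat shock genes ran the other way, with 11 of 12 higher in OB-like cells, and their part in the result was not tested.

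Endothelial cells held higher levels of several members than mpMSC-like cells. Of the 9 members, 4 were higher in EC-like cells and 0 lower, against 19.7% of all genes higher and 22.1% lower. The fit included the 267 EC-like cells of the Pdgfra-GFP library. These came through a sort for GFP and are no replicate of the metaphyseal ones. They held 399 CPM of *Isg15*, against 144 and 145 CPM in EC-like cells of metaphyseal replicates 1 and 2. *Iigp1* was higher by 3.01 ± 0.28 (adjusted p = 8.36e-09) and *Cxcl10* by 4.07 ± 1.02 (adjusted p = 0.00237). *Gbp2* was higher by 2.12 ± 0.46 (adjusted p = 0.000658), at 35.9, 39.0 and 43.1 CPM against 10.2, 11.3 and 12.3 CPM. *Isg15* was higher by 1.10 ± 0.39 (adjusted p = 0.0268). *Ifit1* and *Cxcl9* stood at -0.35 ± 0.53 (adjusted p = 0.649) and 0.38 ± 0.50 (adjusted p = 0.587) and did not pass. Without the block, *Isg15* (adjusted p = 0.133) and *Gbp2* (adjusted p = 0.0713) did not pass, and with DESeq2's Wald test neither did (adjusted p = 0.0641 and 0.0552). *Isg15* also missed without metaphyseal replicate 1 (adjusted p = 0.0594). *Cxcl9* passed as higher in EC-like cells without the Pdgfra-GFP library (edgeR adjusted p = 0.0043), *Irf7* without metaphyseal replicate 2 (adjusted p = 0.0182) and *Ifit3* without metaphyseal replicate 1 (adjusted p = 0.0352). Of the tested type I-led genes, 23 of 36 were higher in EC-like cells and 2 lower, and of the gamma-led genes 7 of 18 were higher and 3 lower. Of 13 tested NF-kB-led genes 8 were higher and 0 lower, with a median log2 fold change of 1.73, against 1.10 for type I-led genes. Of 12 genes of MHC class I and antigen processing 3 were higher and 4 lower. Immediate early and heat shock genes were higher in 7 of 12 and lower in 1.

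The members did not move together over the endothelial subtypes. Arterial, capillary and sinusoidal EC-like cells of the 2 metaphyseal libraries were compared over 11439 genes, of which 24.9% differed between arterial and sinusoidal cells. *Cxcl9* had 0 UMIs in the 83 and 71 arterial cells, where sinusoidal cells held 19.995 and 15.4 CPM, and it was at least 6.64-fold lower over both libraries, from a floor of 3 UMIs over the group (adjusted p = 9.93e-05). In the Pdgfra-GFP library, outside that fit, arterial cells also held 0 UMIs and sinusoidal cells 74.1 CPM. *Iigp1* was lower in arterial cells by 1.33 ± 0.16 on the log2 scale (adjusted p = 1.69e-07), at 101 and 78.2 CPM against 220 and 226 CPM.

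*Isg15* and *Ifit1* ran the other way. *Isg15* stood at 339 and 315 CPM in arterial cells and 107 and 108 CPM in sinusoidal cells, higher by 1.57 ± 0.24 (adjusted p = 1.16e-05). *Ifit1* stood at 92.5 and 42.1 CPM against 17.7 and 18.8 CPM, higher by 1.88 ± 0.51 (adjusted p = 0.00661). In the Pdgfra-GFP library, which the test did not use, *Isg15* stood at 631 against 253 CPM and *Ifit1* at 131 against 24.7 CPM, the same direction. The arterial *Isg15* value was above the 410 CPM of Lepr-like cells. These endothelial cells came through a sort for GFP and from 1 library, so they are no replicate of the metaphyseal ones. DESeq2's Wald test did not pass for *Ifit1* (adjusted p = 0.269) or *Cxcl9* (adjusted p = 0.635). *Gbp2*, *Irf1*, *Irf7*, *Ifit3* and *Cxcl10* did not pass, and *Cxcl10* in arterial cells came from 3 of 83 and 1 of 71 cells with a UMI. Of the 31 type I-led genes tested here, 5 were higher in arterial cells and 3 lower, against 11.5% of all genes higher and 13.4% lower. That is near the share over all genes, and nothing is read from it.

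Capillary cells were lower than sinusoidal cells for 5 of the 9 members and higher for 0, against 14.4% of all genes lower. *Cxcl9* was at 0 and 0.663 CPM in capillary cells against 19.995 and 15.4 CPM (adjusted p = 4.32e-07), and *Cxcl10* at 2.16 and 1.99 CPM against 27.3 and 23.4 CPM (adjusted p = 0.00029). *Iigp1* differed by -2.28 ± 0.13 (adjusted p = 1.11e-13), *Irf1* by -0.93 ± 0.17 (adjusted p = 8.98e-05) and *Ifit3* by -1.10 ± 0.36 (adjusted p = 0.024). *Isg15* and *Ifit1*, which were higher in arterial cells, stood at 0.03 ± 0.24 (adjusted p = 0.964) and 0.11 ± 0.51 (adjusted p = 0.918) in capillary cells. DESeq2's Wald test did not pass for *Cxcl9* (adjusted p = 0.631) or *Ifit3* (adjusted p = 0.214). Type I-led genes were lower in 7 of 31 and higher in 1, and gamma-led genes lower in 5 of 15. Immediate early and heat shock genes were lower in 10 of 12 in capillary cells and in 6 of 12 in arterial cells, with 0 and 1 higher. Their part in the member results was not tested.

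**Figure D5:**
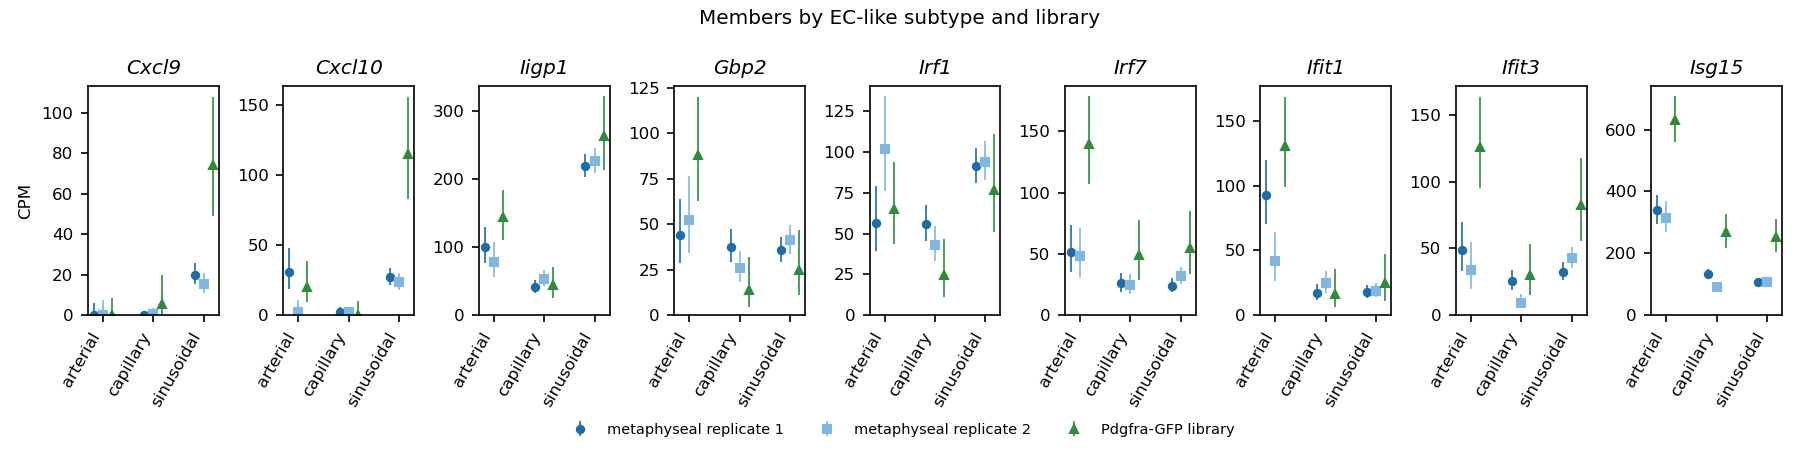
CPM of each member in arterial, capillary and sinusoidal EC-like cells, with 1 point per library and bars for the exact 95% Poisson interval, which covers counting error only. *Cxcl9* and *Iigp1* are highest in sinusoidal cells in all 3 libraries, and *Isg15* and *Ifit1* are highest in arterial cells in all 3.

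Genes that followed a member across the 26 population sums were named by Pearson's r of log2(CPM + 10) among 8745 genes. *Serpina3f*, a serine protease inhibitor gene, followed *Cxcl9* most closely (r = 0.90). *Iigp1* was followed by *Igfbp3* (r = 0.96), which binds insulin-like growth factors. *Isg15* was followed by *Oasl2* and *Rtp4* (both r = 0.90), and *Irf7* by *Rtp4* (r = 0.89) and *Isg15* (r = 0.88), which are interferon genes. *Ifit1* went with *Irgm2* (r = 0.92). *Irf1* went with *Kdm2a* (r = 0.88). The sums share 3 libraries and so are not independent, and no p is given.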

How the data were processed

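Whole-whitelist UMI counts per gene and barcode were deposited for 3 libraries. The authors made these counts with fastp 0.20 and STARsolo (STAR 2.7.3a) on mm10, with no normalization and no cell filter. Total UMIs per library are given above, and 95% intervals are exact Poisson or binomial.

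Barcodes were kept with at least 1500 genes (metaphyseal) or 1000 (Pdgfra-GFP), at most 15% mitochondrial and 30% ribosomal UMIs. A cell joined the population with the highest mean marker score (log counts over their 90th percentile) if that was at least 0.2 and at least 1.5 times the next. Scrublet called 25, 18 and 184 doublets, which were kept. These were 1.05%, 0.895% and 1.63% of cells, against 1.91%, 1.61% and 9.06% expected from the cell numbers. The alternative with doublets removed took out the called ones alone, so others may remain in it. Counts were summed over populations of at least 20 cells and tested with edgeR 4.0.16 (quasi-likelihood, TMM, filterByExpr, library block, R 4.3.3), at a Benjamini-Hochberg adjusted p under 0.05. DESeq2 1.42.0 was an alternative. Populations of a library come from 1 suspension, and their deviations from population means correlated at 0.207 to 0.615 in every pair, so the library was a block. The tests were checked on simulated counts. Per-cell values used cells thinned to 2000 UMIs with scanpy 1.11.5 and Python 3.11.15.

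The members and lists were chosen with earlier results of these data known. The 9 members and any list gene could be named, and for each member the 3 genes of highest correlation among those with a mean of at least 10 CPM. Gene positions are those of Gencode on GRCm38. The endothelial subtype tests used the 2 metaphyseal libraries. Values of some list genes are not reported here.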

Additional observations from a re-analysis of the deposited data

How the results depend on the processing

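Over the alternatives run (DESeq2's Wald test, DESeq2 size factors, no filter on low counts, no library block, a stricter gate, doublets removed, at least 500 genes, at least 10 cells per sum, and leaving out each library), 298 of the tests of single members kept their direction and side of the threshold, 21 lost the call, 16 gained it and 7 changed sign. The sign changed for *Cxcl9* (0.0051) and *Irf7* (0.35) in OB-like against mpMSC-like cells without the Pdgfra-GFP library, for *Cxcl10* (-0.50) and *Irf1* (-0.20) in the same comparison without metaphyseal replicate 2, for *Ifit1* in EC-like against mpMSC-like cells with DESeq2 (0.43) and without metaphyseal replicate 1 (0.24), and for *Cxcl9* there without the block (-0.13), all log2 fold changes. Leaving out 1 library at a time, these ran from -1.56 to 0.0051 for *Cxcl9*, -0.50 to 1.73 for *Cxcl10*, -0.20 to 0.42 for *Irf1* and -1.72 to 0.35 for *Irf7* in the first comparison, and from -0.62 to 0.24 for *Ifit1* in EC-like cells. Of these, the *Cxcl9* difference between OB-like and mpMSC-like cells was the called one. Without the library as a replicate block, the genes called were 2172 of Lepr-like against mpMSC-like cells (3574 with it) and 2556 of OB-like against mpMSC-like cells (4382 with it), and 13 type I-led genes were higher in Lepr-like than mpMSC-like cells (24 with it). Leaving out 1 library, these ran from 2113 to 3046, from 2811 to 3264 and from 14 to 19, and the gamma-led count, 10 in full, from 6 to 10. The cause was not tested. The mean over libraries of the median member ratio in cells with a *Cxcl9* UMI was 2.44 thinned and 1.92 without thinning, and 2.22 to 2.60 leaving out 1 library. Leaving out a library in the endothelial subtypes left no residual degrees of freedom and was not run. Of the list counts, 369 stayed within 1.5 times and 32 did not. mpMSC-like cells of the metaphyseal libraries, 49 and 42 cells, limit every comparison with that population.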

Other observations

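Cells that no marker gate named also held members. Over metaphyseal replicates 1 and 2 and the Pdgfra-GFP sample, the 206, 155 and 2514 ungated cells held *Cxcl9* at 1.98, 8.64 and 58.7 CPM and *Cxcl10* at 46.6, 3.45 and 29.5 CPM. The first *Cxcl10* value came from 94 UMIs in 4 cells. SC-like cells of the Pdgfra-GFP library held 279 CPM of *Isg15*, 37.5 CPM of *Iigp1* and 30.1 CPM of *Cxcl9*, and mural-like cells 307 CPM of *Isg15*. The metaphyseal libraries held 19 and 9 SC-like and 11 and 12 mural-like cells, under the 20 cells needed for a sum. The SC-like and mural-like values come from 1 library and have no replicate check.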
